A study of Rattus norvegicus with 8 samples.

Results

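The genes described here are the 4 Id genes (Id1, Id2, Id3 and Id4) and the SMAD feedback genes Smad6, Smad7 and Bambi, in rat retinal cells that carried a Klf4 plasmid or a control plasmid. They were chosen by symbol as response genes of the BMP and TGF-beta pathways, and a member was any gene probe whose RefSeq transcript belongs to one of these symbols. All 7 genes were found, each with 1 probe printed in 1 spot, among 45598 gene probes of the array, of which 21109 carried a gene symbol (16581 genes). The Klf4 group held 4 arrays and the control group 4 arrays, numbered 2 to 5 in each by the titles. Both groups were Lister hooded rat retinas of postnatal day 0, electroporated in vitro, kept as explants for 39 hours, dissociated, and sorted for GFP, so each sample is the transfected share of a mixed retina. The sources used here do not give the promoter of the plasmids, the number of retinas per sample or whether replicates were separate electroporations, so the spread between arrays may be technical. Expression was read as Cy3 intensity on Agilent 1-colour arrays.

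BMP and TGF-beta ligands bind paired serine-threonine kinase receptors that phosphorylate SMAD proteins, which enter the nucleus and switch on target genes. Id genes are classical BMP targets. They encode helix-loop-helix proteins without a basic DNA-binding region, which pair with E proteins such as Tcf3, Tcf4 and Tcf12 and so hold back the proneural bHLH factors that drive neuronal differentiation. Smad6 and Smad7 are inhibitory SMADs that are induced by the pathway and block it, Smad6 mainly the BMP branch and Smad7 both branches, and Bambi is a truncated pseudoreceptor that dampens receptor signalling. In the developing retina, Id1 and Id3 are known from progenitors and glia, and BMP signalling patterns the optic cup.

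Id1 and Id3 are the members with the largest mean difference in each direction, so the stretch of 250 bases before the start of each is shown, as RefSeq annotates it on build GRCr8. Id1 lies at chr3:161671314-161671563 on the + strand and Id3 at chr5:153656041-153656290 on the + strand. Capitals mark CACCC or its reverse complement GGGTG, the box that KLF factors are known to bind.
Id1: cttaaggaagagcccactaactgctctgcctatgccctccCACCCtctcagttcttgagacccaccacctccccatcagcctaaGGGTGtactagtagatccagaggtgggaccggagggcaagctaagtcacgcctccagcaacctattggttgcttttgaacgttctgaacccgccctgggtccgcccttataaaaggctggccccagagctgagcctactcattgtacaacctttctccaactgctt
Id3: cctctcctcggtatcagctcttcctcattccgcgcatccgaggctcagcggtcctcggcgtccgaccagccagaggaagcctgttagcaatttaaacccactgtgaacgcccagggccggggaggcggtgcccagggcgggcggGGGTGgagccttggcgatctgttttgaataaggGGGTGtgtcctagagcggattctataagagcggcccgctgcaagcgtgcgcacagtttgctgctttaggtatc
Each of these windows held 2 such boxes, both in the GGGTG reading for Id3 and 1 of each reading for Id1. The window of Id2 held 3, that of Bambi 2, that of Id4 1 and that of Smad7 0. Of 33469 rat promoter windows of the same length, 49.2% held at least 1 copy. GGCGCC, the core of a BMP response element and its own reverse complement, stood 2 times in the Smad7 window and 1 time in that of Bambi. None of the 4 Id windows held it, and 8.69% of all windows did. That share is not adjusted for base composition. The Smad7 and Bambi windows were 78% and 72.4% G or C, the Id windows 54.8% to 62.8%, and the median window 51.2%. The SMAD box CAGAC, or GTCTG on the other strand, stood in none of the 6 windows, against 42.9% of all. The 3 motifs do not overlap each other in these windows. A match describes letters in this window only. Smad6 was matched by name but is not in the promoter table used here.

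Levels below are log2 intensities less the 75th percentile of the same array, and fold changes are Klf4 minus control on that log2 scale, each with its standard error (SE) from the limma fit. A Benjamini-Hochberg adjusted p under 0.05 over all 29988 features tested counted as past the threshold. Each array's share of gene spots well above background was 72.1% to 86.5%, lowest on Klf4 replicate 4, and no gene spot was saturated. Klf4 replicate 4 and control replicate 4 were outside the quality limits of the extraction software. Both arrays numbered 5 came from a second scan. Controls lay in slide columns 1 and 3 and Klf4 arrays in columns 2 and 4, so slide column and plasmid cannot be told apart. Whether the single Klf4 probe lies inside the insert of the plasmid is not stated in the sources used here. It read -3.0 ± 0.86 in Klf4 cells and -3.27 ± 0.62 in control cells (SD, n = 4 each) and so does not check the labels. The change of the median feature was -0.07.

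Id1 was the member with the largest difference, higher on every Klf4 array than on any control array, but it did not pass the threshold. Id3 and Bambi lay lower on average with Klf4, and Id2, Id4, Smad6 and Smad7 lay within 0.18 of no difference. With limma 0 of the 7 members passed, in a comparison in which 3.67% of all features did. An unadjusted p under 0.05 was met by 1 of the 7, and the share of all features that met it was not counted. The median over the members was -0.02, beside -0.07 over all features tested. All 7 were well above background on all 4 Klf4 and all 4 control arrays.

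**Figure D1:**
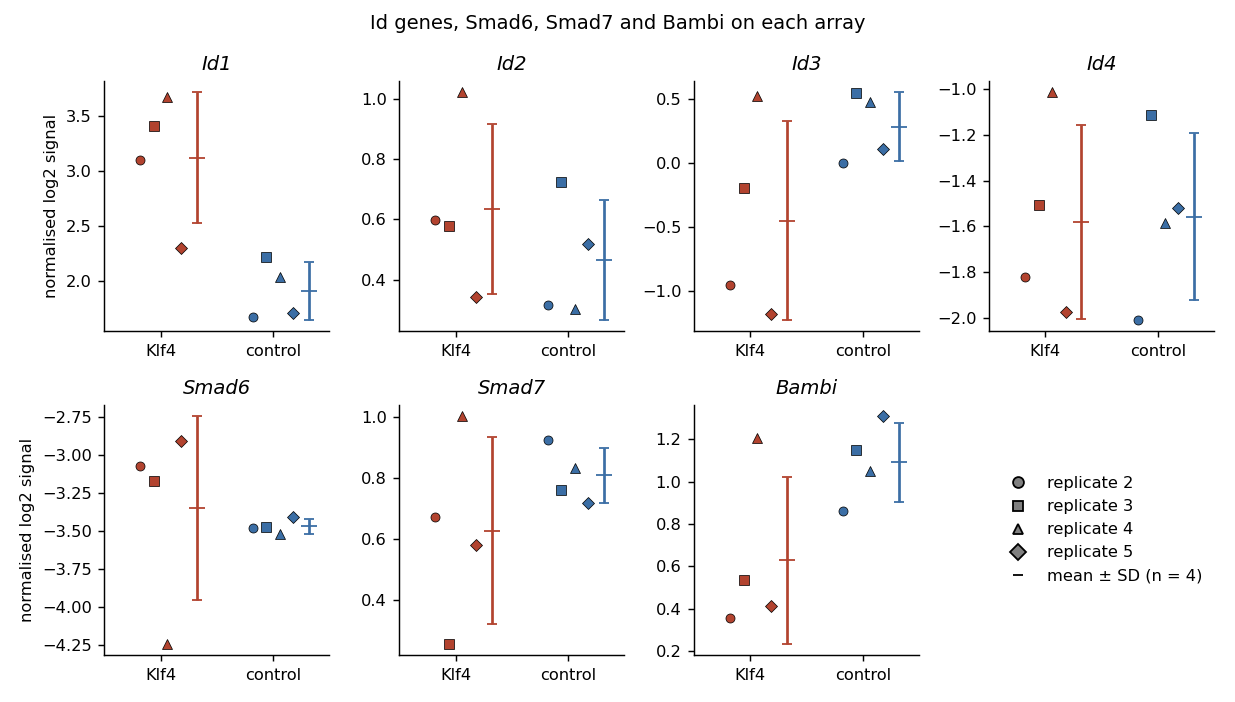
Normalised log2 signal (vertical axis, log2 scale, not starting at 0) of the 7 genes on each Klf4 and control array; symbols give the replicate number and bars the mean ± SD. Only Id1 separated the groups, with Klf4 arrays at 2.30 to 3.67 and control arrays at 1.67 to 2.22.

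Among the Id genes, Id1 had levels of 3.10, 3.41, 3.67 and 2.30 on Klf4 replicates 2, 3, 4 and 5, against 1.67, 2.22, 2.04 and 1.72 on control replicates 2, 3, 4 and 5. The groups did not overlap, which held for 10.2% of all features, and the lowest Klf4 array lay 0.08 above the highest control. Before scaling, its intensities were 3879.9 to 18658 on the Klf4 arrays and 2404 to 8019.6 on the control arrays, and the 2 arrays of the second scan were the dimmest of their groups. The mean was 3.12 ± 0.59 in Klf4 cells and 1.91 ± 0.26 in control cells (SD, n = 4 each). The fold change was 1.21 (SE 0.29, 95% interval 0.54 to 1.87), which is 2.31-fold, with an adjusted p of 0.0694. Within the first scan the difference was 1.42 (3 arrays a group), and in the second 0.58 (1 array a group). Klf4 replicate 5 was the low one: without it the fold change was 1.48 and Id1 passed (limma adjusted p = 0.0103), and leaving out any other array gave no call. Id1 also passed when the scan was fitted as a block (adjusted p = 0.0229), in the first scan alone (0.0283), with normexp background correction (0.0491) and with array weights (0.00534), over a range of 0.00534 to 0.214 in 22 alternatives.

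Id3 read -0.95, -0.19, 0.53 and -1.17 on Klf4 replicates 2 to 5, against -0.00035, 0.55, 0.48 and 0.11 on control replicates 2 to 5. On 3 of the 4 Klf4 arrays it was below every control, and on Klf4 replicate 4 it was as high as in the controls, so the groups overlapped. The mean was -0.45 ± 0.78 in Klf4 cells and 0.28 ± 0.27 in control cells (SD, n = 4 each), with a fold change of -0.73 (SE 0.36, 95% interval -1.55 to 0.09, limma adjusted p = 0.497). Without Klf4 replicate 4 the fold change was -1.06 and did not pass (adjusted p = 0.0724). With array weights, a fit that lets noisier arrays count less, it was -0.96 and passed (adjusted p = 0.0364). The first scan gave -0.55 and the second -1.29.

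Id2, which is widely expressed in neural progenitors, read 0.60, 0.58, 1.02 and 0.34 on the Klf4 arrays, against 0.31, 0.72, 0.30 and 0.52 on the controls. Its fold change was 0.17 (SE 0.18, 95% interval -0.24 to 0.58, limma adjusted p = 0.824). Id4, the member known from neural stem cells and astrocytes, read -1.82, -1.51, -1.01 and -1.98 on the Klf4 arrays, against -2.01, -1.11, -1.58 and -1.52 on the controls. Its fold change was -0.02 (SE 0.26, 95% interval -0.61 to 0.56, adjusted p = 0.992). For both genes the groups overlapped throughout.

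The 2 inhibitory SMAD genes showed small mean differences. Smad6 read -3.07, -3.17, -4.24 and -2.91 on Klf4 replicates 2 to 5, against -3.48, -3.47, -3.52 and -3.41 on control replicates 2 to 5. The controls lay within 0.11 of each other, 3 Klf4 arrays were above all of them, and Klf4 replicate 4 was below all of them. The fold change was 0.12 (SE 0.28, 95% interval -0.51 to 0.75, limma adjusted p = 0.946). Without Klf4 replicate 4 it was 0.42 (adjusted p = 0.0728). Smad7 read 0.67, 0.26, 1.0 and 0.58 on the Klf4 arrays, against 0.92, 0.76, 0.83 and 0.72 on the controls, with a fold change of -0.18 (SE 0.17, 95% interval -0.57 to 0.21, adjusted p = 0.792). Here too 3 Klf4 arrays lay on one side of all controls, below them, and Klf4 replicate 4 lay above all of them.

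Bambi, the pseudoreceptor, read 0.35, 0.54, 1.21 and 0.41 on Klf4 replicates 2 to 5, against 0.86, 1.15, 1.05 and 1.31 on control replicates 2 to 5. Its fold change was -0.46 (SE 0.21, 95% interval -0.94 to 0.02, limma adjusted p = 0.441). The exception was Klf4 replicate 4 once more, at the level of the controls. Without that array the fold change was -0.66 and Bambi passed (adjusted p = 0.0328), and with array weights it was -0.57 and passed (0.0136). Arrays of the first scan differed by -0.32 and those of the second by -0.89.

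The arrays of a group did not vary independently between members, and how many other features vary in the same way was not counted. Over all features, Klf4 replicate 4 correlated with the other Klf4 arrays at 0.953 to 0.964. Those arrays correlated with each other at 0.978 to 0.992. On Klf4 replicate 4, Id1, Id2, Id3, Id4, Smad7 and Bambi lay 0.37 to 0.98 above their Klf4 mean and Smad6 lay 0.89 below it. On Klf4 replicate 5, Id1 and Id3 lay 0.82 and 0.73 below their Klf4 means, and Smad6 lay 0.44 above. Among the controls, replicate 3 was the highest for all 4 Id genes, by 0.26 to 0.44 over the group mean.

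**Figure D2:**
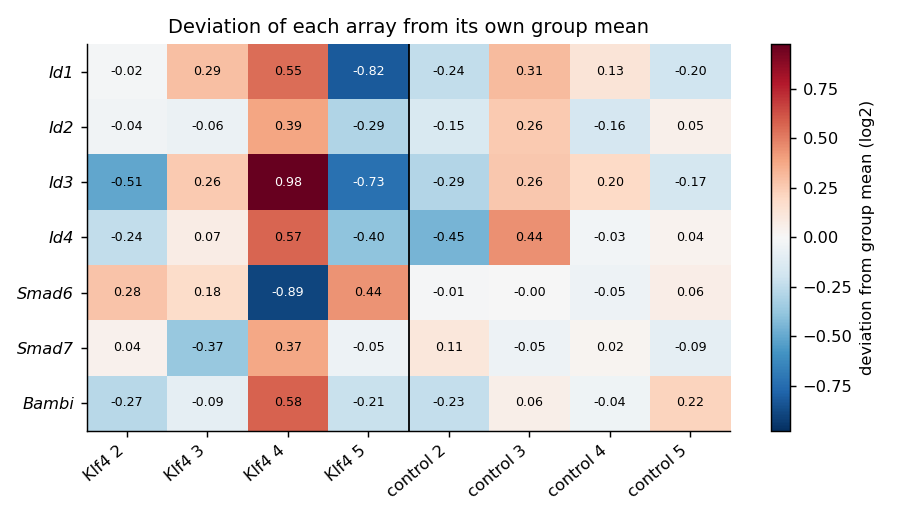
Deviation of each array (columns, Klf4 left of control) from the mean of its own group for the 7 genes (rows), on the log2 scale given by the colour bar. Klf4 replicate 4 lies 0.98 above the Klf4 mean for Id3 and 0.89 below it for Smad6.

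Id1 and Id3 lay on opposite sides of the control means while varying together within groups, so the ratio of members on the same array was compared, a comparison chosen after the values were seen. Such a ratio does not depend on the scaling factor of an array, and it compares changes, not the levels of different probes. The log2 ratio of Id1 to Id3 was 4.05, 3.60, 3.14 and 3.47 on Klf4 replicates 2 to 5, against 1.67, 1.68, 1.56 and 1.60 on control replicates 2 to 5. The controls lay within 0.11 of each other, and every Klf4 array lay at least 1.46 above them. The mean was 3.57 ± 0.38 in Klf4 cells and 1.63 ± 0.06 in control cells (SD, n = 4 each), a difference of 1.94, or 3.83-fold. The two-sided exact permutation p was 0.0286, which is the smallest that 4 arrays against 4 can give. Klf4 replicates 4 and 5, which stood apart for single members, had the lowest Klf4 ratios, at 3.14 and 3.47. Both lay above every control.

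Of the 21 pairs of members, 8 had ratios that did not overlap between groups (exact permutation p = 0.0286 each, 0.0751 adjusted over the 21 pairs, so 0 passed after adjustment). Id1 was in 5 of the 8. With Klf4 it was higher relative to Id2 by 1.04, to Id3 by 1.94, to Id4 by 1.23, to Smad7 by 1.39 and to Bambi by 1.67, each with no overlap. The background for Id1 is high, since its ratio to 52.7% of all other features did not overlap either, so its count shows nothing particular to these partners. For Id4 the share of all other features was 3.04% and for Smad7 it was 7.45%. For Id3 the share was 8.33%, and its ratios to Id1, Id2 and Id4 were those without overlap. Id3 lay 0.90 lower relative to Id2 and 0.71 lower relative to Id4. The last of the 8 pairs was Id2 to Bambi, at 0.63, where the share was 6.44% for Id2 and 16.4% for Bambi. Id2 and Id4 kept nearly the same ratio, 2.22 ± 0.18 in Klf4 cells and 2.02 ± 0.22 in control cells (SD, n = 4 each, exact permutation p = 0.257).

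**Figure D3:**
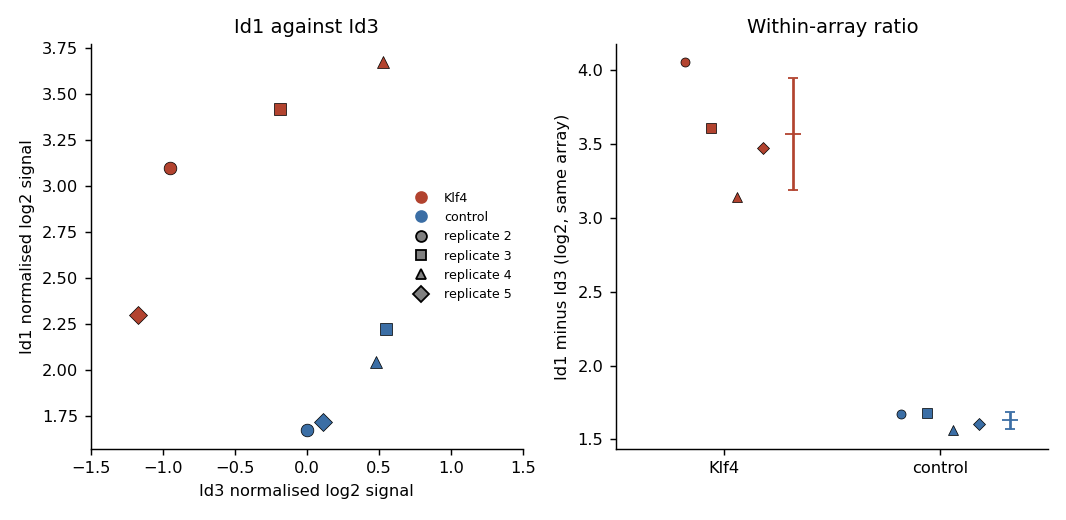
Left, Id1 (vertical) against Id3 (horizontal), normalised log2 signal on each array, Klf4 red and control blue, symbols by replicate; right, the within-array difference of Id1 and Id3 with mean ± SD. The Klf4 arrays sit between 3.14 and 4.05 and the controls between 1.56 and 1.68.

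Genes with a pattern most like each member's were read from Pearson correlations over the 8 arrays, among 13495 genes with a symbol, as a description in which arrays share their group and scaling. For Id1 they were Cd1d1 (r = 0.98) and Trim21 (0.98), with fold changes of 0.53 and 0.66. For Id3 they were Pdgfrb (0.99) and Pank1 (0.99), with fold changes of -0.86 and -0.41, and for Bambi Mmd2 (0.98) and Bmal1 (0.98). For Id2 they were Scgb1a1 (0.95) and Prrc1 (0.94), and for Id4 Acot13 (0.96) and Ppa1 (0.96). For Smad6 they were Lrp1 (0.99) and Rnf133 (0.99), and for Smad7 Cd63 (0.96) and Hoxb7 (0.94). Like Smad6, Lrp1 and Rnf133 were lowest on Klf4 replicate 4, at -1.42 and -6.75. Rnf133 was well above background on 3 Klf4 and 2 control arrays. How high the best r among so many genes would lie by chance was not tested. None of these 14 genes passed the threshold between Klf4 and control.

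The rest of the pathway was read from a list of 83 genes in 7 roles, of which 71 were tested, 7 were too dim and 5 had no probe by the RefSeq match. Of the 71, 10 were higher and 1 was lower with Klf4, beside 3.2% higher and 0.467% lower over all features. The list was chosen with earlier results of these data known, so these counts do not test the pathway as a whole. The median of the list was -0.01, beside -0.07 over all features. The genes that passed were ligands, secreted antagonists, 1 intracellular regulator, response genes and 1 E protein. Of 13 receptors and 6 signal-carrying SMADs 0 passed with limma, which is near the 3.67% over all features. In each of these roles 1 gene had an unadjusted p under 0.05, again without a share over all features. Roles were not tested against each other. The receptor with the largest difference was the activin receptor gene Acvr2b (-0.54, SE 0.18, adjusted p = 0.234), and among the SMADs it was Smad3 (0.37, SE 0.12, adjusted p = 0.22).

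**Figure D4:**
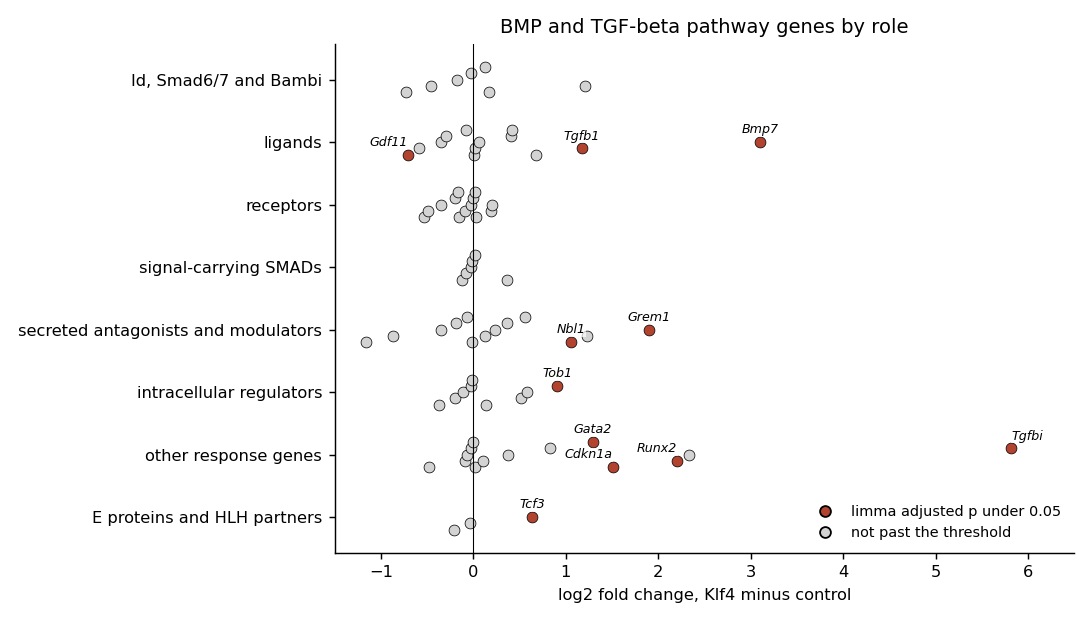
Log2 fold change, Klf4 minus control (horizontal axis), of the 7 described genes (top row) and the 71 tested pathway genes by role; vertical scatter within a row only separates points. Red points passed limma's adjusted p of 0.05, and Tgfbi (5.82) and Bmp7 (3.10) lie furthest out.

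Bmp7, a BMP ligand needed for eye development, had levels of -0.81, -1.53, -2.50 and -0.45 on Klf4 replicates 2 to 5, against -4.24, -4.34, -4.67 and -4.45 on control replicates 2 to 5. The groups lay far apart, and the gene rose by 3.10 (SE 0.40, limma adjusted p = 0.00333), with a smallest value of 2.10 under normexp background correction. Tgfb1 rose by 1.17 (SE 0.24, adjusted p = 0.0325), from a dim probe that was well above background on 3 Klf4 and 2 control arrays. Under normexp that value was 0.33 (adjusted p = 0.645). Gdf11, a TGF-beta family ligand that in mouse limits the number of retinal ganglion cells, had 1.48, 1.70, 1.75 and 1.73 on the Klf4 arrays, against 2.45, 2.42, 2.21 and 2.42 on the controls. It was the gene of the list that fell, by 0.71 (SE 0.12, adjusted p = 0.0163), and it did not pass with scaling to the array median (0.0699) or in the first scan alone (0.0678). Bmp2 was at 0.67 on its brightest probe and did not pass (adjusted p = 0.62). The mean over its kept probes gave 0.14 (adjusted p = 0.947), and array weights gave 1.21 and a call (0.0361).

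Secreted BMP antagonists held 2 of the genes that rose with Klf4. Grem1, which encodes gremlin and binds BMP ligands outside the cell, had -3.16, -3.20, -3.58 and -2.90 on the Klf4 arrays, against -5.42, -4.54, -5.27 and -5.20 on the controls. It rose by 1.90 (SE 0.23, limma adjusted p = 0.00217), was well above background on only 2 control arrays, and had 0.93 under normexp (adjusted p = 0.0191). Nbl1, of the same antagonist family, had 2.05, 1.53, 1.59 and 2.09 on the Klf4 arrays, against 0.66, 0.79, 0.80 and 0.78 on the controls, and rose by 1.06 (SE 0.16, adjusted p = 0.00848). The BMP antagonist gene Chrd, chordin, was at 1.23 and did not pass (adjusted p = 0.08). It passed with the scan as block (0.0352) and with array weights (0.0324), and had 0.52 under normexp (0.481).

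Among intracellular regulators, Tob1, an antiproliferative protein that can bind SMADs, rose by 0.90 (SE 0.12, adjusted p = 0.00428), with 1.44 to 1.66 on the Klf4 arrays and 0.54 to 0.80 on the controls. Pmepa1, which is induced by TGF-beta and holds back receptor-activated SMADs, was at 0.58 (adjusted p = 0.159) and passed with the scan as block (0.0355) and with array weights (0.0245). Of the other response genes, 4 of 14 tested were higher, beside 3.2% over all features. The matrix gene Tgfbi rose by 5.82 (SE 0.34, adjusted p = 0.000122), with 0.16 to 0.90 on the Klf4 arrays and -6.07 to -4.54 on the controls, where it was well above background on 2 of 4, and had 4.09 under normexp. Cdkn1a, the cell cycle inhibitor p21, rose by 1.51 (SE 0.25, adjusted p = 0.0131). It did not pass as the mean over its kept probes (1.30, adjusted p = 0.0729) or in the first scan alone (1.46, adjusted p = 0.0928). Gata2, a zinc-finger factor, rose by 1.29 (SE 0.20, adjusted p = 0.0095), with 0.72 under normexp. Runx2, a runt factor of bone and cartilage, was well above background on 0 of the 4 controls and was higher with Klf4 (adjusted p = 0.0344). With control values below the lowest signal well above background of their array raised to it, Runx2 was 2.90-fold higher. That value is not a lower limit, since under normexp Runx2 was at 0.65 on the log2 scale (adjusted p = 0.274). Ccn2, a matricellular TGF-beta target, was at 2.33 and did not pass (adjusted p = 0.0666). It passed under normexp, at 1.28 (0.0368), and without control replicate 3, at 2.80 (0.0218).

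Of the E proteins that Id proteins bind, Tcf3 had 3.14, 3.01, 3.09 and 3.22 on the Klf4 arrays, against 2.49, 2.38, 2.38 and 2.67 on the controls. It rose by 0.63 (SE 0.12, limma adjusted p = 0.0266), and the groups did not overlap. Tcf4 was at -0.21 (adjusted p = 0.615) and Tcf12 at -0.04 (adjusted p = 0.984). Leaving out 1 array ended 5 of the 11 calls of the list. Gdf11 lost its call without Klf4 replicate 2 or 3 or control replicate 2 or 3 (adjusted p 0.0553 to 0.0719), and Tgfb1 without Klf4 replicate 2, 3 or 5 or control replicate 3, 4 or 5 (0.0769 to 0.11). Runx2 lost it without any Klf4 array or control replicate 3 or 4 (0.0626 to 0.115), Tcf3 without Klf4 replicate 2, 3 or 5 or control replicate 2, 3 or 4 (0.0628 to 0.117), and Cdkn1a without Klf4 replicate 2 (0.0545). The other 6, Bmp7, Grem1, Nbl1, Tob1, Tgfbi and Gata2, passed with any single array left out. The count of the list was 6 without Klf4 replicate 2 and 7 without Klf4 replicate 3.

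Id genes, Smad6, Smad7 and Bambi are also expressed in vessels, mural cells and glia, so markers of other cells were set beside them as summed linear levels over the kept genes of each list. In bulk samples a change in the share of a cell type and a change in RNA per cell cannot be told apart. Calls in each list stand beside 3.2% higher and 0.467% lower over all features. The endothelial list (7 of 12 kept) summed to 88.4 to 156 on the Klf4 arrays and 94.8 to 115 on the controls. The 156 was on Klf4 replicate 4. Of the 7 kept endothelial genes 2 were higher. These were Tek (2.38, limma adjusted p = 0.0016) and Esam (adjusted p = 0.00991), which was well above background on 3 Klf4 and 0 control arrays. With dim control values raised as for Runx2, Esam was 3.90-fold higher, which is not a lower limit. Cdh5, Flt1, Kdr, Erg and Sox18 were well above background on all 8 arrays and lay at -0.08 to 0.34, none past the threshold. The other genes of the list with a probe were dim: Pecam1 was well above background on 2 Klf4 and 2 control arrays, Cldn5 on 1 and 2, Tie1 on 1 and 1, and Emcn on 0 and 1. The list of pericytes and fibroblasts (7 of 11 kept) summed to 7.98 to 9.57 on the Klf4 arrays and 4.44 to 5.38 on the controls. The sums did not overlap, although the median of the 7 genes was -0.17. Col1a1 (1.36, limma adjusted p = 0.00123) and Cspg4 (1.62, 0.00368) were higher, while Pdgfrb (-0.86, 0.523), Col1a2 (-0.47, 0.22), Pdgfra (-0.44, 0.55), Col3a1 (-0.17, 0.819) and Kcnj8 (0.03, 0.992) did not pass, and Lum and Abcc9 were not well above background on any array. The photoreceptor list (9 of 10 kept) summed to 126, 124, 209 and 102 on Klf4 replicates 2 to 5, against 158 to 210 on the controls. Its 3 lower genes were Crx (-0.84, limma adjusted p = 0.0378), Rbp3 (-1.10, 0.0154) and Rxrg (-0.69, 0.0496), beside 0.467% lower over all features. Every kept gene of this list had a negative fold change, with a median of -0.57. The Klf4 and control ranges overlapped for progenitors (88.4 to 100.5 and 74.6 to 116), Muller glia (60.1 to 67.8 and 58.9 to 64.3), microglia (6.28 to 7.09 and 5.37 to 8.04), astrocytes (0.54 to 0.70 and 0.31 to 0.60), lens (0.58 to 0.87 and 0.57 to 1.71) and the single kept pigment epithelium gene (26.6 to 89.4 and 30.5 to 59.3). Within these lists 3 genes passed, all higher with Klf4: Vim of the Muller glia list (1.14, limma adjusted p = 0.0129), C1qb of the microglia list (1.04, 0.0242), and S100b of the astrocyte list (3.80, 0.0319), which was well above background on 4 Klf4 and 2 control arrays. Their part in the levels of Id1, Id3, Smad6 and Bambi was not tested.

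**Figure D5:**
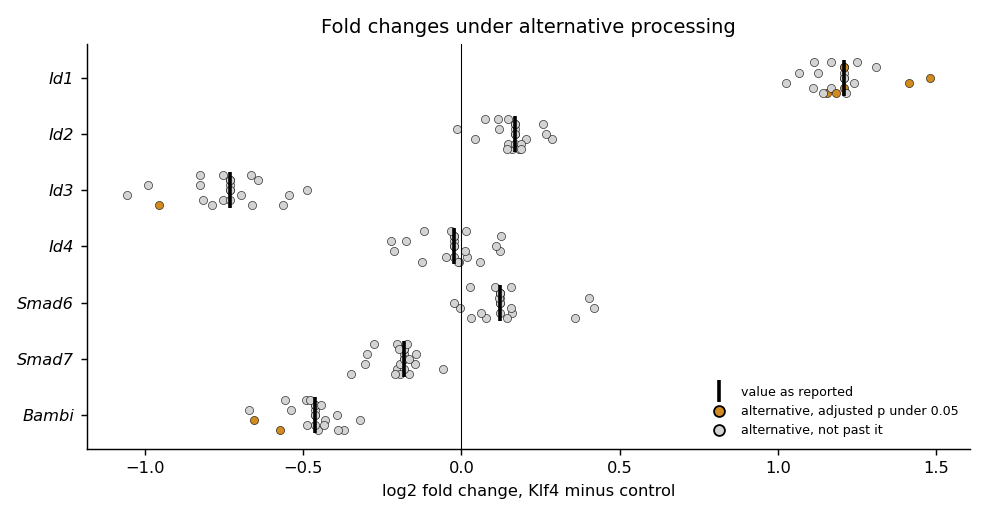
Log2 fold change, Klf4 minus control (horizontal axis), of the 7 genes as reported (black bars) and under 22 alternatives each (points, orange where limma's adjusted p was under 0.05). Id1 stays above 0 (1.02 to 1.48) and Id3 (-1.06 to -0.49), Smad7 (-0.35 to -0.06) and Bambi (-0.67 to -0.32) below it, while Id2, Id4 and Smad6 cross it.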

How the data were processed

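The authors deposited 1 scanner file per array and 1 table of log2 values. Per the file headers, intensity values were extracted with Agilent Feature Extraction 10.7.3.1, with background subtracted and detrended and no scaling between arrays, on a design annotated to build rn4. The flags for control type, background, saturation and outliers, unit other, are deposited by the same software. The authors' log2 table (45735 rows) has a median of 7.54 in every column, correlates with its own array at r 0.994 to 1.00 across probes, and the sources used here do not say how it was made.

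After control spots and flagged outliers were dropped, replicate spots were averaged per probe as log2 values, and the 75th percentile over probes of the array was subtracted. Probes well above background on at least 3 of 4 arrays of a group were kept, and the brightest kept probe stood for a gene (29988 features, 13595 with a symbol). Names came from RefSeq GRCr8 transcripts matched without versions. Groups were compared with limma 3.58.1 in R 4.3.3 (lmFit, eBayes, two-sided, no covariates), and ratios of members by exact permutation. Figures were drawn with matplotlib 3.10.9. The fit was tested on simulated data with planted log2 changes. It recovered 33.3% of 66 changes of 1, 76.1% of 67 changes of 2 and 97.0% of 67 changes of 4, with 6 false calls. A gene that did not pass may therefore still differ. The files hold no mean spot signal, so normexp (offset 50) used the median signal. Named were the 7 members, the pathway genes past the threshold, the largest other difference of each role, Tcf3, Tcf4, Tcf12, Klf4 and the 2 genes most like each member. The members and lists were chosen with earlier results of these data known. The number of arrays limits the precision.

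Arrays that share a number correlated in their deviations from the group means at 0.36, 0.24, 0.06 and 0.55 for numbers 2, 3, 4 and 5. For numbers 2, 3 and 5, but not 4, the control array with the highest correlation to a Klf4 array was that of its own number. Such arrays also shared a scan and a slide row, and the labels do not state a pairing. The arrays numbered 2 and 3 all lay in the first scan and in slide row 1. Number 2 lay in columns 1 and 2 and number 3 in columns 3 and 4. The main fit left the samples unpaired, and a pairing is not excluded. Alternatives covered background correction, scaling, the filter, several probes, the authors' table, array weights, scan, slide row and replicate number as blocks, and leaving out arrays.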

Additional observations from a re-analysis of the deposited data

Results flagged for a closer look

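Each group of 4 arrays was checked for 1 array far from the rest, for the 27 named genes, which makes 54 groups. Chance flags about 1 in 20 groups, and 3 of the 54 stood out. Gdf11 on control replicate 4 read 2.21, below the other controls at 2.42 to 2.45. Bmp2 on Klf4 replicate 4 read -4.44, below the other Klf4 arrays at -3.30 to -3.08. Tcf12 on control replicate 5 read 0.038, above the other controls at -0.57 to -0.52. None of the 7 Id and SMAD feedback genes met this limit, though Smad6 and Bambi on Klf4 replicate 4 came close, with gaps of 0.804 and 0.786 of the group's range.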

How the results depend on the processing

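No member passed in the values as reported, and with other settings up to 3 did. The count was 3 with array weights (Id1, Id3 and Bambi), and 1 each with normexp, the scan as a block, the first scan alone and the replicate number as a block (Id1 in each, adjusted p = 0.0422 under the last), and 0 to 1 with single arrays left out (Id1 without Klf4 replicate 5, Bambi without Klf4 replicate 4). Of the pathway list 11 genes passed, against 18 with array weights, 6 in the first scan alone, and 6 to 11 with single arrays left out. The first scan alone holds fewer arrays. The cause of these moves was not tested. Over all features, 961 were higher and 140 lower, against 1805 and 1171 with array weights and 635 and 48 in the first scan alone.

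The Id1 to Id3 ratio of 1.94 kept its direction and its lack of overlap. Its exact permutation p could not go below 0.05 with the scan as a block (1.94, p = 0.05), with the slide row as a block (1.94, p = 0.0556), with the replicate number as a block (1.94, p = 0.125), in the first scan alone (1.96, p = 0.1) or without both arrays numbered 4 (2.06, p = 0.1), because these designs allow no smaller p. With single arrays left out it was 1.78 to 2.08.

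Signs turned only for genes near 0 or of wide spread. Id2 was at -0.012 without both arrays numbered 4. Id4 was at 0.017 with quantile normalization, 0.010 with the array median, 0.015 with the authors' table, 0.12 in the first scan alone, and -0.21 to 0.12 with single arrays left out. Smad6 was at -0.0031 in the first scan alone and -0.024 to 0.42 with single arrays left out. Tcf12 was at 0.15 with array weights, 0.10 without both arrays numbered 4, and -0.19 to 0.14 with single arrays left out, and Klf4 at -0.15 to 0.54. Of 440 values of the other 20 named genes, 382 kept direction and side of the threshold. The replicate number as a block also ended the calls of Gdf11 (adjusted p = 0.0583) and Runx2 (0.0679) and brought those of Ccn2 (0.0256) and Chrd (0.0495), so the list stayed at 11, all of them higher with Klf4. The 75th percentile over spots, tried after seeing the data, ended those of Tgfb1 (0.0944) and Tcf3 (0.0575) and changed no call of a member. Other settings ended further calls of Gdf11, Tgfb1, Nbl1, Gata2, Runx2, Cdkn1a and Tcf3, with adjusted p from 0.0503 to 0.645, and array weights brought those of Bmp2, Chrd, Pmepa1 and Smad3 (0.0111 to 0.0361). Each value as reported rests on 1 probe, the brightest kept one, though some of the other named genes have several. The mean over kept probes moved Bmp2 from 0.67 to 0.14 and Tcf12 from -0.04 to -0.22, without a call. It moved Gdf11 and Tcf4 little (-0.74 and -0.20), and Cdkn1a lost its call (1.30, adjusted p = 0.0729). Dim controls limit Tgfb1, Grem1, Tgfbi and Runx2.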
